A study of Mus musculus with 9 samples.

Results

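The muscle microRNA loci are the places in the mouse genome that hold Mir1a-1, Mir1a-2, Mir133a-1, Mir133a-2, Mir133b, Mir206, Mir208b, Mir486 and Mir499, 9 genes for microRNAs that are abundant in skeletal or heart muscle. Each gene was taken with 25 kb on either side (mm10, GENCODE M21), and genes whose windows overlapped were counted as 1 locus, which left 6 loci: Mir206 with Mir133b, Mir1a-1 with Mir133a-2, Mir1a-2 with Mir133a-1, and Mir486, Mir499 and Mir208b on their own. Of 58309 merged regions with a MyoD1 peak in the series, 32 lay in these windows. MyoD1 was mapped by CUT and RUN, which tethers micrococcal nuclease to an antibody-bound protein and sequences the fragments it releases. The libraries used came from C2C12 mouse myoblasts of 1 clone that is homozygous for MyoD1 tagged with 3xFlag and Halo at its own locus and that also carries a 3xFlag-Halo-MyoD1 transgene inserted by PiggyBac behind the TRE3G promoter. All cultures were switched to differentiation medium. The 3 no dox libraries were made without doxycycline and the 3 +dox libraries after 6 h with it, each from a biological replicate. Wild-type C2C12 cells gave 3 further libraries that were not analysed here, and no background from untagged cells is given.

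MicroRNAs are short RNAs that pair with messenger RNAs, chiefly through the seed near their 5′ end, and lower their stability and translation. MyoD1 is a basic helix-loop-helix factor that binds E-boxes, above all CAGCTG, and switches on muscle genes. The muscle microRNAs are known as part of the same programme: miR-1 and miR-206 promote differentiation, miR-133 acts on proliferation and on the factor SRF, miR-208b and miR-499 sit in myosin genes and favour slow fibres, and miR-486 is enriched in muscle.

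The mature microRNAs show, as far as their sequences were at hand, which of these genes make like products. RefSeq (GRCm38.p6) gave entries for 5 of the 9 genes, and the arms below are printed 5′ to 3′ with the seed, bases 2 to 8, in capitals.
miR-206-3p: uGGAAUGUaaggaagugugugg
miR-133b-3p: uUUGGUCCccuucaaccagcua
miR-206-5p: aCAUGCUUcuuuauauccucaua
miR-1a-1-5p: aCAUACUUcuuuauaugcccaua
miR-499-5p: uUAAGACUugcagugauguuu
miR-208b-3p: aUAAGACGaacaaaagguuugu
The 5p arms of miR-206 and miR-1a-1 shared 6 of 7 seed bases, as did miR-499-5p and miR-208b-3p. For miR-1a only this 5p arm had an entry, so its 3p arm was not compared with miR-206-3p. Mir206 and Mir133b, which share a locus, make products with different seeds.

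At 4 of the 6 loci a region was called in at least 2 of 3 libraries of a group. The sequence under such a region is shown for each of these loci, and each holds the E-box. At each of these loci the region below is the one with the highest mean height among regions called in at least 2 of 3 libraries of a group, and the 300 bases are the plus strand of mm10 with CAGCTG in capitals.
Mir206, chr1:20677953-20678252: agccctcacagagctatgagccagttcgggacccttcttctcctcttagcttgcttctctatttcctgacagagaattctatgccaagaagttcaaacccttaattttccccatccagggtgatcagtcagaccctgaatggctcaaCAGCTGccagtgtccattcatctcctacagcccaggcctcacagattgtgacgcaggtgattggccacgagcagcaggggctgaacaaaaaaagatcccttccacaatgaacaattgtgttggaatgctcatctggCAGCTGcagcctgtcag
Mir486, chr8:23138803-23139102: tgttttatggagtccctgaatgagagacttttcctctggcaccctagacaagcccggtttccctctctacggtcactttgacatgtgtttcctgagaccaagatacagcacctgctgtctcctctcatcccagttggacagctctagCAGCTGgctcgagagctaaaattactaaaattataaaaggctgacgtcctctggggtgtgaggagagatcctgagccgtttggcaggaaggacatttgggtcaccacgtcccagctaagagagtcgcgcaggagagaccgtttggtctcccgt
Mir499, chr2:155606378-155606677: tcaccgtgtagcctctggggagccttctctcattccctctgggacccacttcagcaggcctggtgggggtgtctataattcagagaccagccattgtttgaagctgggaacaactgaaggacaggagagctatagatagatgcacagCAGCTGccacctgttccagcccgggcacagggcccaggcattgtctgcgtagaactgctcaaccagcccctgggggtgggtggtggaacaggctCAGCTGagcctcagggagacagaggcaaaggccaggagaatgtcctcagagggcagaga
Mir208b, chr14:54997359-54997658: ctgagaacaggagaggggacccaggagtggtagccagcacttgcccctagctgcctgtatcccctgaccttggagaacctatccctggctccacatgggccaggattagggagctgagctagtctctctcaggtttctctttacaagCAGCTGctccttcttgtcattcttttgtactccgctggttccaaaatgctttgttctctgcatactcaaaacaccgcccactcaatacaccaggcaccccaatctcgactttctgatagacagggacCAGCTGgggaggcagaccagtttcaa
In +dox replicate 3, the library highest in percentile, the signal maximum was centred 22 bp from a CAGCTG at Mir206 and Mir486. The distance there was 47 bp at Mir499 and 84 bp at Mir208b. Over all libraries that called the region, it was 22 to 64 bp at Mir206 and 22 to 97 bp at Mir486. It was 47 bp in each at Mir499 and 61 to 109 bp at Mir208b. Within 300 bases, 2 copies were present at Mir206, Mir499 and Mir208b and 1 at Mir486.

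Peak heights are given as percentiles of maximum signal within a library's own list, where 100 is the highest peak. The no dox lists held 9389 to 13877 peaks at depths of 4297000 to 4667000 alignments. The +dox lists held 12536 and 13260 peaks in replicates 1 and 2, at 2868000 and 3597000 alignments, and 53661 peaks in replicate 3, at 8030000 alignments. The +dox replicate 3 list thus stood apart. Its median peak had a maximum of 1.49 CPM, against 3.00 to 8.37 CPM in the other lists, so that a given region ranks higher in it. The 4838 regions called in all 6 libraries had a median percentile of 93.5 in that list and of 70.2 to 80.4 in the others, while their median maximum was 11.0 CPM there and 17.4 and 15.0 CPM in +dox replicates 1 and 2. Every percentile of +dox replicate 3 carries this shift, and CPM values are therefore given beside the percentiles of the consensus regions.

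Of the 32 regions at the muscle microRNAs, 20 (62.5%) had a peak in +dox replicate 3 alone, against 59.2% of all regions. These 20 had heights between percentiles 4.90 and 91.7, with a median of 31.8, and 6 to 72 alignments at their maximum, with a median of 10. A further 3 regions were called in 1 other library and 3 in a pair of libraries of different groups. That left 6 regions, here called consensus regions, with a peak in at least 2 of 3 libraries of a group. Consensus was reached without dox by 4 regions (12.5%, against 16.2% of all regions) and with dox by 3 regions (9.38%, against 23.7%), with 1 region in both counts. The region near Mir206 was the only one of the 32 called in all 6 libraries (3.13%, against 8.3% of all regions). No region had peaks in all 3 +dox libraries and none of the no dox libraries, a pattern that 1.09% of all regions had. Without +dox replicate 3 the windows held 12 regions, with 4 consensus regions without dox and 2 with dox, the latter both at the locus of Mir206 and Mir133b.

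**Figure D1:**
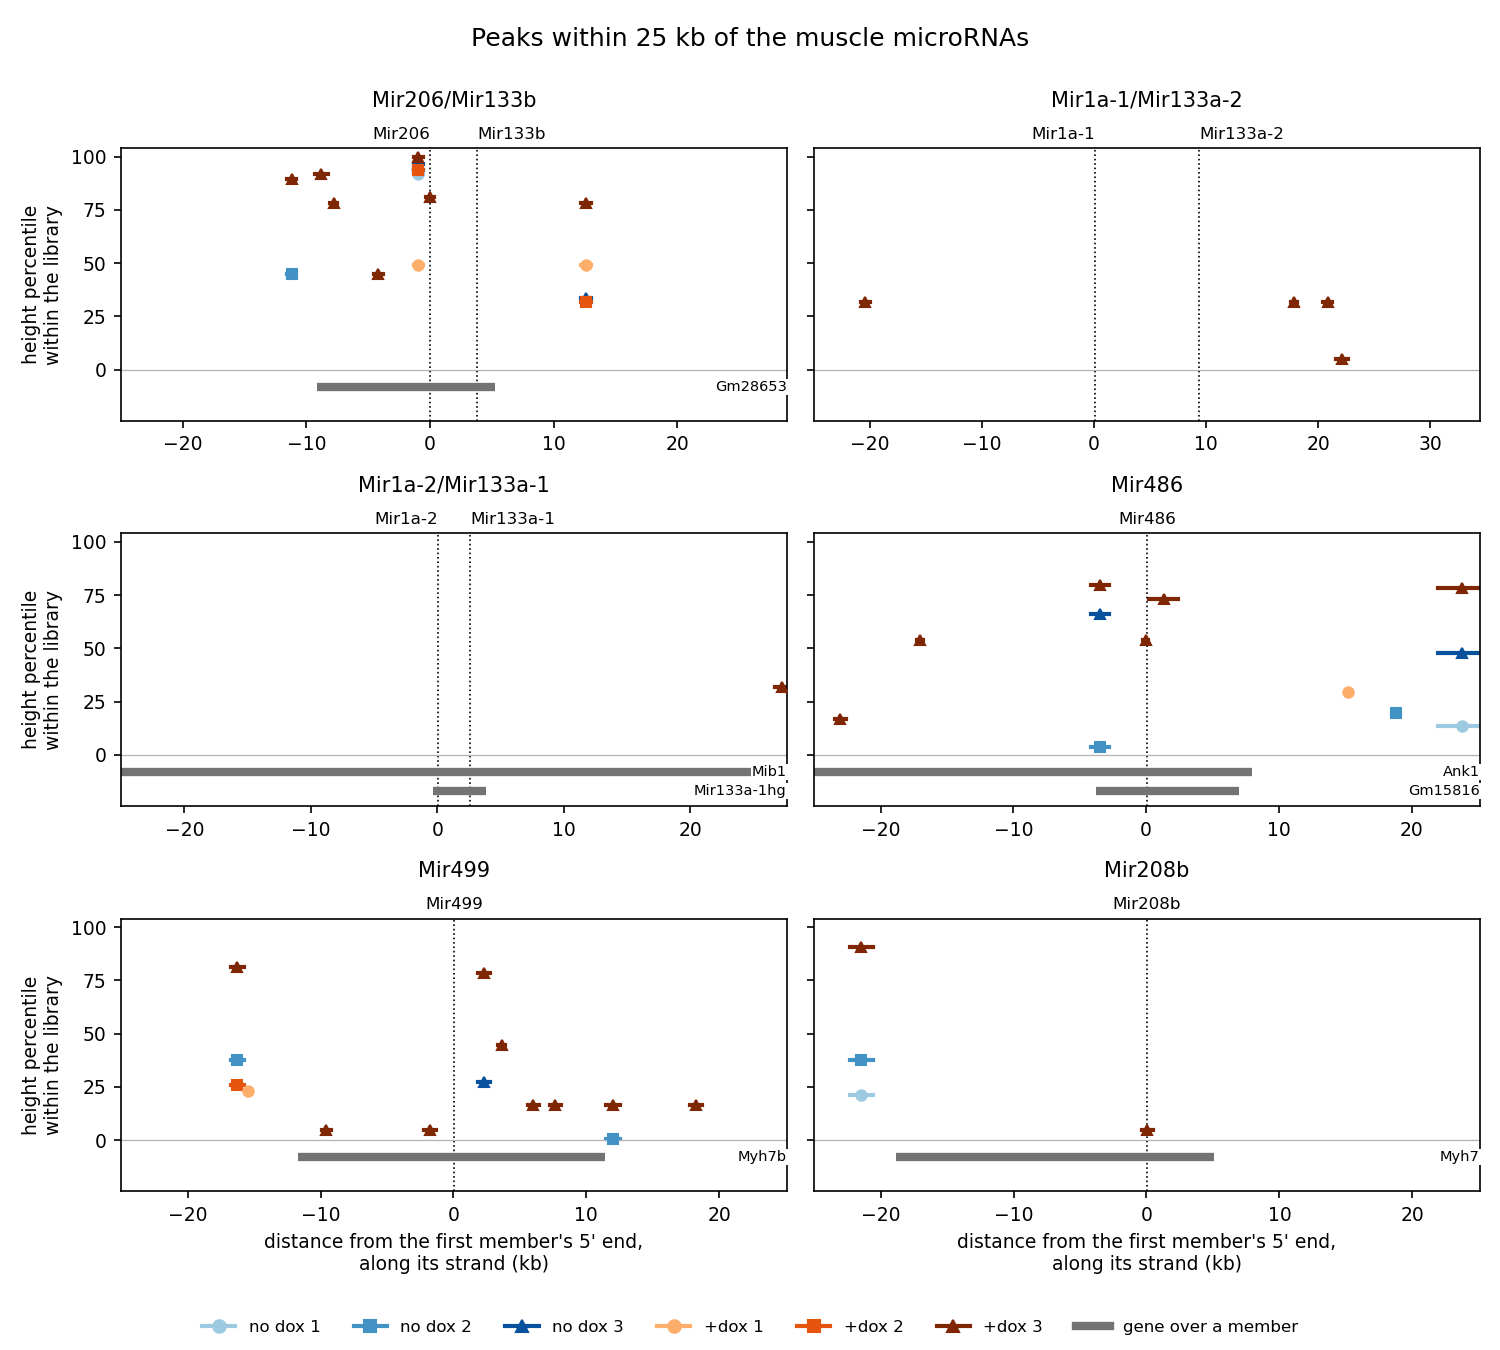
Each panel is 1 locus, with the distance from the first microRNA's 5′ end along its strand in kb on the horizontal axis and the height percentile within the library on the vertical axis. Bars span the merged region and symbols mark its centre, coloured by library (blue no dox, orange and brown +dox); dotted lines are the microRNAs and grey bars the genes that lie over them. The stack of symbols close to Mir206 is the region called in all 6 libraries, and the panels of the Mir1a genes hold only symbols of +dox replicate 3.

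Counted as loci, 3 of the 6 had a consensus region without dox, 2 had one with dox and 1 had a region called in all 6 libraries. Over all 1664 microRNA loci of the annotation, built with the same windows, these shares were 29.7%, 38.2% and 19.1%. The number of peaks at the 6 loci together was 3, 7 and 5 in no dox replicates 1 to 3 and 4, 3 and 30 in +dox replicates 1 to 3. Per 10000 peaks of the list this was 3.20, 5.04 and 3.73 without dox and 3.19, 2.26 and 5.59 with dox. So 1 library carried the higher +dox count, and the groups overlapped on either scale. Without that library the mean difference was −1.5 peaks, against 7.33 with it.

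Binding was strongest at Mir206 and Mir133b, the pair that lies on the plus strand of chromosome 1 at chr1:20679010-20679082 and chr1:20682769-20682887. Both lie in exons of Gm28653, a lincRNA on the same strand that spans chr1:20669882-20684298. The region called in all 6 libraries, chr1:20677701-20678450, lay in an intron of Gm28653. Its signal maximum was centred 885 bp upstream of the 5′ end of Mir206 and 898 bp from the second annotated start of Gm28653. The maxima of the 6 libraries fell within 50 bp of one another, and 4 of them on the same position.

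The height of the Mir206 region was at percentiles 91.8, 93.8 and 96.6 in the no dox lists and 49.3, 93.9 and 99.9 in the +dox lists. The no dox libraries lay close together, while +dox replicate 1 was the lowest of all 6 and +dox replicate 3 the highest, so that the groups overlapped. Counted from the top, it was peak 761, 845 and 444 of the no dox lists and peak 6131, 803 and 36 of the +dox lists. Means were 94.1 ± 2.43 without dox and 81.0 ± 27.6 with dox (SD, n = 3). The difference of −13.0 percentile points lay within the spread of the +dox replicates (two-sided exact permutation p = 0.9, where 3 against 3 allow no p under 0.1; Benjamini-Hochberg adjusted p = 0.975 over the 4838 regions called in all 6 libraries). The smallest adjusted p of those 4838 regions was 0.421. Without +dox replicate 1 the difference turned to 2.85 (exact permutation p = 0.4), and without +dox replicate 3 it was −22.5 (exact permutation p = 0.3).

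In CPM the maximum signal at Mir206 was 19.1, 21.7 and 18.4 without dox and 8.37, 36.1 and 103 with dox. These maxima were made of 82, 96 and 86 alignments without dox and 24, 130 and 824 with dox. The 95% Poisson intervals, which cover counting error only, ran from 14.7 to 26.5 CPM over the 3 no dox libraries, which all overlapped. They were 5.36 to 12.5, 30.2 to 42.9 and 95.7 to 110 CPM in +dox replicates 1, 2 and 3. With each alignment taken as an independent count, none of these overlapped another or a no dox interval. The study sequenced paired ends, and all the alignment counts above were even. The sources used here do not state whether both mates of a pair were counted. If they were, the intervals are too narrow and some may overlap, so the lack of overlap is not established. The SD of the log2 maximum was 0.12 without dox, lower than in all but 2.79% of the 4838 regions, and 1.82 with dox, higher than in 99.6% of them. Medians over the 4838 regions were 0.56 and 0.72. On the log2 scale the mean maximum was 0.68 higher with dox (exact permutation p = 0.7), a direction opposite to that of the percentiles. Over all 4838 regions the median of this difference was 0.91, and the median difference in percentile was 6.40.

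**Figure D2:**
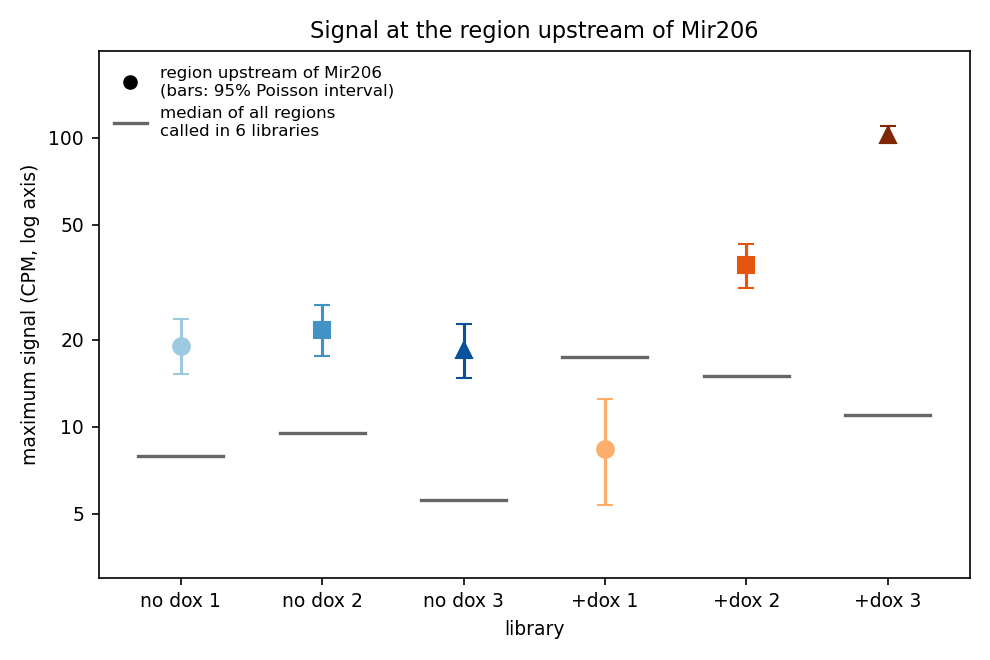
The vertical axis is the maximum signal in CPM on a log axis and the horizontal axis the 6 libraries. Symbols are the region upstream of Mir206 with 95% Poisson intervals, and grey lines the median of all regions called in 6 libraries. The intervals take each alignment as an independent count and are too narrow if both mates of a pair were counted. The no dox symbols sit between 18.4 and 21.7 CPM, and +dox replicate 1, at 8.37 CPM, is the only library in which the region lies below that median (17.4 CPM).

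As a measure of what a region such as this does in the same libraries, the groups did not overlap in height percentile in 23.7% of the 4838 regions with +dox higher and in 0.0413% with +dox lower. The Mir206 region was in neither set. Its percentile difference was lower than that of all but 4.63% of the regions, and its log2 difference lower than that of all but 31.6%.

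The second consensus region of this locus, chr1:20691251-20692050, was intergenic, with its maximum 8806 bp downstream of the 5′ end of Mir133b. It had no peak in no dox replicates 1 and 2 and one at percentile 33.5 in replicate 3. With dox its percentiles were 49.3, 31.9 and 78.5. Its maxima were 2.36 CPM in no dox replicate 3 and 8.37, 5.00 and 3.74 CPM with dox, so that +dox replicate 3 was the lowest +dox library in CPM. It was thus called in 1 of 3 no dox and 3 of 3 +dox libraries (exact permutation p = 0.4, adjusted p = 1 over 58309 regions). This test could not decide. For a region called in 4 libraries, 1 against 3 is the most uneven split, so no lower p was possible. No region of the genome had a lower adjusted p in the test of calls. Its maxima were low, at 11 alignments in the no dox library and 24, 18 and 30 in the +dox libraries. A CAGCTG lay 3 to 53 bp from the maxima of the +dox libraries and 253 bp from that of no dox replicate 3. At the first start of Gm28653 a peak was centred 93 bp away in +dox replicate 3 alone, at percentile 91.7. Over Mir206 itself, 35 bp from its 5′ end, a peak at percentile 81.1 was also found in that library alone.

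Mir486 lies at chr8:23142555-23142682 in an intron of Ank1 and on its strand, with the antisense gene Gm15816 over it. Ank1 codes for ankyrin-1, and its short muscle form, which anchors the sarcoplasmic reticulum, starts at a promoter inside the gene. The region chr8:23138401-23139750 was centred 3580 bp upstream of Mir486 and 55 bp from one of the internal starts of Ank1 (chr8:23139030), the closest of all consensus regions to a start of a host gene. It was called at percentiles 3.61 and 66.0 in no dox replicates 2 and 3 and at 79.9 in +dox replicate 3, and not in the other three libraries. Their maxima were 1.81, 4.29 and 3.98 CPM, with no dox replicate 3 the highest on this scale. These peaks held 8, 20 and 32 alignments at their maxima, which lay within 75 bp of one another. The region held 5 copies of CAGCTG, the most of the 6 consensus regions.

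The other consensus region of Mir486, chr8:23164501-23168250, was intergenic, 24220 bp downstream and outside Ank1. Its peaks had percentiles of 13.6 and 47.9 in no dox replicates 1 and 3 and of 78.5 in +dox replicate 3. Their maxima were 2.79, 3.00 and 3.74 CPM. Its 2 copies of CAGCTG lay 950 to 1375 bp from the maxima of the 3 libraries, and it was the consensus region with none within 100 bp of its maximum. Over the whole of Ank1, which is 175654 bp long, peaks numbered 1, 2 and 2 without dox and 1, 1 and 12 with dox.

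Mir499 lies at chr2:155622880-155622958 in an intron of Myh7b, a myosin heavy chain gene, on its strand. Its consensus region, chr2:155606151-155607100, was 16305 bp upstream and intergenic, 4637 bp before the start of Myh7b. Its peak had percentile 37.5 in no dox replicate 2, 25.7 in +dox replicate 2 and 81.1 in +dox replicate 3. In CPM the maxima were close together, at 3.61, 4.45 and 4.23. All 3 libraries had their maximum on the same position, midway between a pair of CAGCTG that each lay 47 bp away. The locus had the most regions, 10 in all, of which 6 were in +dox replicate 3 alone. No peak was centred within 1 kb of a start of Myh7b but 1 of +dox replicate 3, and over Myh7b peaks numbered 0, 0 and 1 without dox and 0, 0 and 6 with dox.

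Mir208b lies at chr14:54975700-54975776 on the minus strand in an intron of Myh7, the gene of slow, or beta, myosin heavy chain. Its consensus region, chr14:54996351-54998100, was 21649 bp upstream and intergenic, 2799 bp before the start of Myh7. It was called at percentiles 21.4 and 37.5 in no dox replicates 1 and 2 and at 90.5 in +dox replicate 3. In CPM these maxima were 3.26, 3.61 and 7.97, from 14, 16 and 64 alignments. Besides 3 copies of CAGCTG the region held 2 MEF2 sites and a CArG box, the motif of SRF, and it was the consensus region that held all of these. Neither the MEF2 sites nor the CArG box lay within 100 bp of the maximum in the highest library. In Myh7 itself the only peak was 1 of +dox replicate 3, at percentile 4.90.

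**Figure D3:**
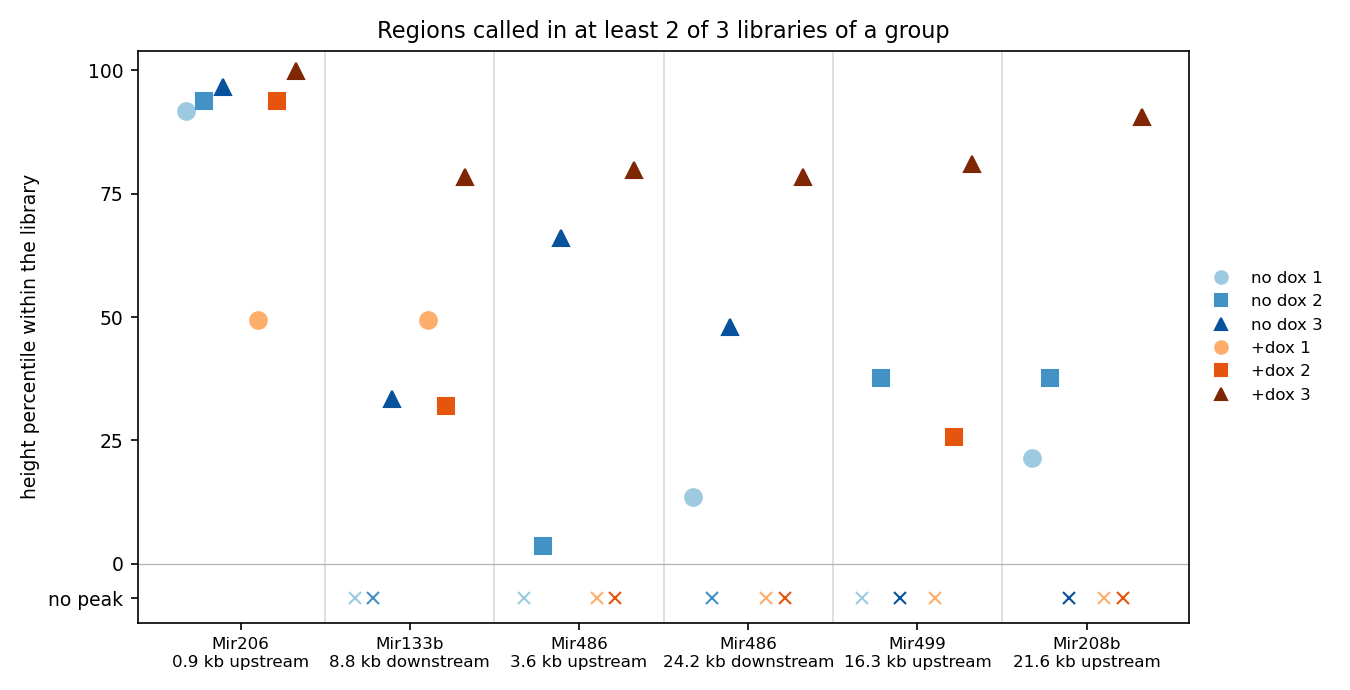
The vertical axis is the height percentile within the library and each column 1 of the 6 consensus regions, named by the nearest microRNA and the distance from its 5′ end. Crosses mark libraries without a peak there. Outside the Mir206 column every region has 2 to 3 crosses. The highest symbol there is that of +dox replicate 3, whose percentiles run high throughout, and in CPM that library was not the highest in 3 of these 5 regions.

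The loci of miR-1a and miR-133a were those without a peak in any library but +dox replicate 3. At Mir1a-1 and Mir133a-2 (chr2:180389048-180389124 and chr2:180398379-180398482, with no gene over them) 4 regions were found, all in +dox replicate 3 alone and none above percentile 31.8. The nearest was 8671 bp downstream of Mir133a-2. At Mir1a-2 and Mir133a-1 (chr18:10785481-10785552 and chr18:10782909-10782976) 1 region was found, also in +dox replicate 3 alone and at percentile 31.8, 24826 bp downstream of Mir133a-1. These genes lie in an intron of Mib1, on the opposite strand, and of the noncoding Mir133a-1hg, on the same strand. Mib1 codes for a ubiquitin ligase of Notch ligands. Mir133a-1hg had no peak in any library, and a start of Mib1 had 1 in no dox replicate 1 and 1 in +dox replicate 1. A locus without a peak was one where nothing was called at these depths, which does not show that MyoD1 was absent.

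E-boxes were present with and without peaks. The 6 windows held 229 copies of CAGCTG, of which 52 lay in a region with a peak in any library, extended by 100 bp, and 16 in a consensus region. The windows of Mir1a-1 and Mir133a-2 held 42 copies, 2 of them in a region, and those of Mir206 and Mir133b 29 copies, 10 of them in a region. All 6 consensus regions held CAGCTG, as did 74.3% of the 14755 consensus regions of the genome. Within 100 bp of the maximum it was present in 5 of 6, against 38.3% of the 14755. Over the extended regions the AP-1 motif TGANTCA was present in 4 of 6 (43.0% of the 14755), a MEF2 site in 2 (13.0%) and a CArG box in 1 (7.54%). Within 100 bp of the maximum AP-1 was present in 1 of 6 (13.1%), MEF2 in 0 (0.962%) and CArG in 0 (0.922%). Both strands were searched, and CANNTG, the general E-box that takes in CAGCTG, was found in 99.4% of all consensus regions.

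Among the 1664 microRNA loci, each was ranked by the mean over 6 libraries of its highest percentile, with 0 where there was no peak. Mir206 with Mir133b had a mean of 87.6, with 106 loci above it and 93.6% below. Mir486, Mir499 and Mir208b had means of 34.8, 32.5 and 24.9, with 72.0%, 70.7% and 66.9% of loci below. Both Mir1a loci had a mean of 5.31. These means rest in part on +dox replicate 3: without it they were 85.1 at Mir206, 25.8, 22.8 and 11.8 at Mir486, Mir499 and Mir208b, with 93.3%, 71.7%, 70.0% and 64.2% of loci below, and 0 at both Mir1a loci. Of the 1664 loci, 592 had no peak in any library. By the mean absolute difference in highest percentile over the 6 libraries, the microRNA genes most like the Mir206 locus were Mir5623 (1.83 points), Gm44300 (3.89 points) and Gm22461 (3.99 points). Their percentiles in +dox replicate 1 were 52.8, 60.8 and 65.3, the lowest of the 6 libraries for each. The value of the Mir206 locus in that library entered the choice of these genes, so their low values there are no separate evidence.

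**Figure D4:**
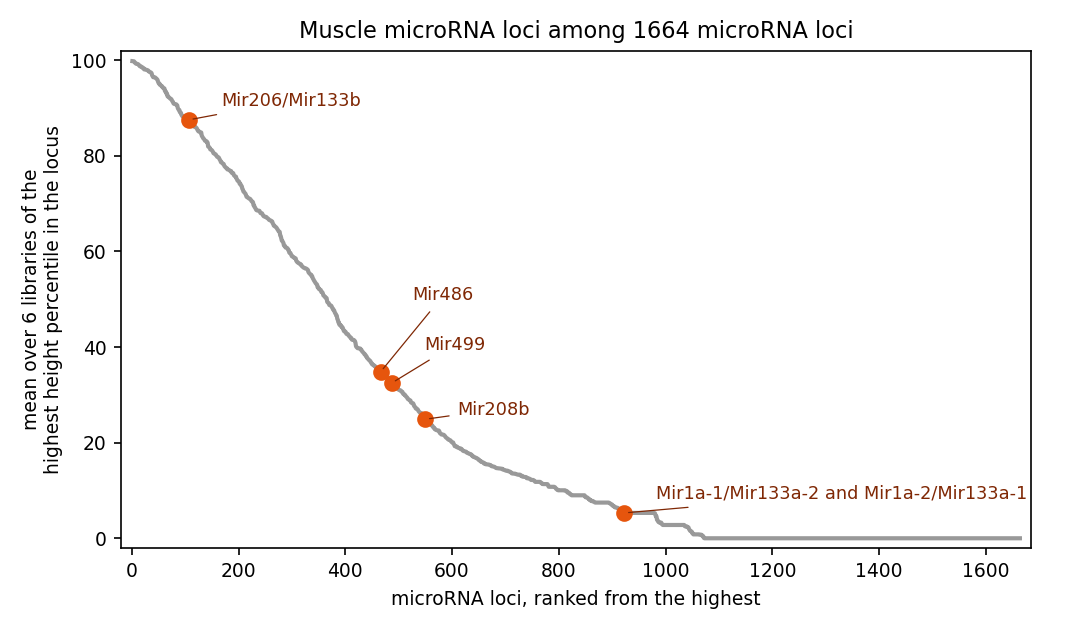
The vertical axis is the mean over 6 libraries of the highest height percentile within 25 kb, and the horizontal axis ranks the 1664 microRNA loci from the highest. Orange points are the muscle microRNA loci. Mir206 with Mir133b stands at 87.6, the others between 5.31 and 34.8.

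The genes whose products make and load microRNAs were taken for comparison, though their windows are longer since they span whole genes. Of 15 such genes with 25 kb on each side, 10 had a consensus region without dox, 13 with dox and 7 a region called in all 6 libraries, where the shares over 21951 protein-coding genes were 43.9%, 56.2% and 28.2%. Each gene was counted singly, whether or not its window shared regions with that of another. None of the regions of these genes had peaks in all 3 +dox libraries and in no library without dox. Dgcr8, the RNA-binding partner of Drosha in the nucleus, had its highest peak at percentiles 85.4, 89.3 and 66.0 without dox and 95.3, 93.0 and 92.0 with dox. Tarbp2, a partner of Dicer, was at 85.4, 92.7 and 89.1 without dox and 95.3, 91.5 and 95.4 with dox. At Drosha the highest peaks were at 21.4, 19.7 and 47.9 without dox and 29.7, 19.0 and 73.2 with dox. Dicer1 had no consensus region in either group, and Lin28b had no peak.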

How the data were processed

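Per the methods of the study, the authors aligned reads to mm10 with nf-core/cutandrun, removed blacklisted regions, scaled coverage to CPM and ran SEACR in relaxed mode, separately for every library. Whether a control library or a fixed threshold was used is not given in the sources used here. The deposited lists give each peak's total signal and maximum signal in CPM of coverage, with no spike-in scale, so that percentiles compare ranks and not amounts of protein. Maximum signals were whole multiples of 1 step in 100% of peaks (tolerance 0.02 steps), and that step gave the depth in alignments. No p under 0.1 is possible with 3 libraries against 3.

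Peaks of the 6 lists were merged where they overlapped or touched. Where a list had several peaks in a region, the highest counted. Exact permutation tests (two-sided, 20 assignments) compared the groups, with Benjamini-Hochberg adjustment over all regions tested. The merging, tests and depth were tested on simulated data. Every locus is described, with values per library for consensus regions. For each locus outside chromosome 18 that had a consensus region, the one with the highest mean percentile is printed, centred on a CAGCTG. The 3 microRNA genes with the smallest mean absolute difference from the highest locus are named as most alike. The members, lists and tests were chosen with earlier results of these data known. Alternatives changed the height measure, list length, floor, window, consensus rule, merging, pairing and libraries. Annotation was GENCODE M21, and microRNA sequences came from RefSeq (GRCm38.p6). Python 3.11.15, NumPy 2.4.6, pandas 2.3.3, SciPy 1.17.1 and Matplotlib 3.10.9 were used.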

Additional observations from a re-analysis of the deposited data

How the results depend on the processing

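Of 137 recomputed values, 3 turned the direction of the height difference, 17 moved by over 1.5 times, by more than the SD between replicates or, in another unit, to another sign, and 117 stayed within these limits. The 117 overstate stability. They include the replicate block values, which cannot differ from the main ones. They also include the difference in peaks at the 6 loci, which changed sign from 7.33 to −1.5 without +dox replicate 3, a library that widened the SD used as limit. The height difference at the Mir206 region, −13.0 percentile points, turned to 0.68 on the log2 CPM scale and to 2.85 without +dox replicate 1, and ran from −22.5 to 2.85 when each library was left out in turn. In the libraries numbered 3 alone it was 3.34, and in replicates 1 and 2 alone −21.2. These settings and the ranks without +dox replicate 3 were chosen after seeing the data. The other settings gave −3.90 to −18.2. The main test did not take replicate numbers to pair libraries. The deviations of same-numbered libraries correlated by 0.367, −0.00972 and 0.493 over 4838 regions. No correlation of different-numbered libraries is given beside these, so they do not settle whether the numbers pair libraries. With the numbers as a replicate block the difference was −13.0 (exact sign-flip permutation p = 1, smallest possible 0.25), from −42.4, 0.0523 and 3.34 in the pairs, and the difference in peaks at the 6 loci was 7.33. The 32 regions, 4 of them consensus without dox and 3 with dox, became 17 regions with 2 without dox within 10 kb, and 49 with 5 without and 6 with dox within 50 kb. Asking for 3 of 3 libraries left 1 without and 2 with dox. The 50 kb window and the 3 of 3 rule turned the order of the group counts. Leaving out any 1 no dox library did so too (2 without and 3 with dox), where both remaining no dox libraries had to call a region. The counts were equal within 10 kb (2 and 2), with a common floor (3 and 3) and in replicates 1 and 2 alone (2 and 2). Lists of equal length gave 9 regions and a common floor of total signal 15. Leaving out each library gave 12 to 33 regions, 2 to 4 without dox and 2 to 3 with dox, the lowest count of regions being without +dox replicate 3. Replicates 1 and 2 alone gave 11 regions, 2 of them consensus without dox. The difference in peaks at the 6 loci was −0.309 per 10000 peaks and −0.667 in lists of equal length, and ran from −1.5 without +dox replicate 3 to 12 without +dox replicate 2. In the consensus regions other than the one upstream of Mir206, maxima rested on 8 to 64 alignments, so a missing call there does not show that no MyoD1 was bound.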

Other observations

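Other microRNAs known from muscle, growth or the vessel wall were listed beside the muscle microRNAs. Of 34 listed microRNA genes, chosen with earlier results of these data known, 16 had a consensus region without dox, 17 with dox and 11 a region called in all 6 libraries, where 29.7%, 38.2% and 19.1% of all 1664 microRNA loci did. Genes of one cluster share their regions and are counted singly here, while the shares beside them are over loci. The 16 genes include Mir3107, whose window had the same 8 regions and highest percentiles as that of the muscle microRNA Mir486. The cluster of Mir23a, Mir27a and Mir24-2 held 16 regions, of which 9 were consensus without dox and 7 with dox. Its highest peak was at percentile 99.4 or above in every library. At Mir29a and Mir29b-1, known for acting on collagens, the highest peaks were at 97.6, 99.1 and 98.6 without dox and 95.6, 98.3 and 99.5 with dox, while Mir29b-2 and Mir29c of the same family had no region. Mir675, which is made from the imprinted RNA H19, had its highest peak at percentile 99.0 or above in every library and was the only gene of the list with a region that all 3 +dox libraries and none of the no dox libraries called.

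Mir208a, the heart relative of Mir208b in the neighbouring myosin gene, had no consensus region. Mir221 and Mir222, which are linked to proliferation, and Mir181a-1 had no peak in any library.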
